A study of Homo sapiens with 9 samples.

Results

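The BCL2 family holds the proteins that decide whether the outer mitochondrial membrane of a cell stays closed or is opened during apoptosis. The transcripts of 10 family members were followed in MDA-MB-231 cells, an established human triple-negative breast cancer line, grown with or without the copper chelator TEPA, a polyamine. The members were listed by name and comprised the anti-apoptotic genes BCL2, BCL2L1 and MCL1, the effectors BAX and BAK1, and the BH3-only genes BCL2L11, BID, PMAIP1, BIK and BMF. All 10 had a row among the 59453 gene names of the count table, and 9 of them were among the 16556 genes with enough reads to test. BIK was the member that was not tested. Poly(A) RNA was sequenced from 3 groups of 3 libraries each. These were untreated cells, cells kept with TEPA for 8 h and cells kept with TEPA for 24 h. The labels give the dose as 8 mM, whereas the methods text on RNA sequencing gives 4 mM. A single untreated group served both times, and when it was harvested and whether it received a vehicle are not given in the sources used here. The labels do not state that libraries of a group came from separate cultures, so the p-values measure the spread between these samples, which may be technical.

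Anti-apoptotic members hold effectors and BH3-only proteins in check by binding them. BAX and BAK1, once released or activated, form pores in the outer mitochondrial membrane, through which cytochrome c leaves to start the caspase cascade. BH3-only proteins act as sensors upstream: they bind the anti-apoptotic members, and some of them activate the effectors directly, each in answer to different kinds of damage or loss of survival signals. Many breast cancer cells depend on BCL2L1 or MCL1 for survival. Much control over the family lies in protein binding and turnover, which transcript levels do not show.

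Library totals ranged from 34633755 to 49342659 counts, TMM scaling factors ranged from 0.978 to 1.04, and the common biological coefficient of variation was 0.0481. VIM, CD44 and AXL, which mark the mesenchymal character of the line, were each at 560.4 CPM or more in every library, where CPM is the count scaled to the TMM-adjusted library size. Group means, listed as untreated, 8 h, 24 h, were 3674, 4387 and 3387 for VIM. For CD44 they were 858.6, 1077 and 864.6, and for AXL 684.7, 848.8 and 581.5. CDH1, which encodes E-cadherin and which the paper reports as upregulated, was also listed. Its means in that order were 0.624, 0.351 and 3.19, and those of EPCAM, listed too, were 1.13, 1.45 and 1.12. These are levels, given without a test. ESR1 had at most 9 counts and PGR had 0 counts in every library. ERBB2, listed beforehand as low, was at 81.4 ± 5.11 CPM in untreated cells (SD, n = 3), and at 73.2 and 52.95 CPM on average at 8 h and 24 h. Of 6 markers of fibroblasts, leukocytes and endothelial cells, COL1A2, PDGFRA and PTPRC had at most 6 counts in every library. Summed over all 6, the markers were at 45.4 to 59.7 CPM in untreated cells, 57.9 to 62.9 CPM at 8 h and 117.5 to 126 CPM at 24 h, through PDGFRB above all (34.2, 27.1 and 94.5 CPM on average). In the same order, COL1A1 was at 13.7, 32.45 and 18.0 CPM and PECAM1 at 3.6, 1.06 and 8.13 CPM. Whether the rise of the sum at 24 h had a part in the 24 h results given here was not tested. In bulk RNA, fewer cells of a type and less RNA per cell cannot be told apart.

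Per exon length, the anti-apoptotic genes BCL2L1 and MCL1 were at the highest levels of the members in untreated cells. Levels between genes were compared as RPKM, the TMM-scaled CPM divided by the summed length of a gene's exons in kb. That length joins the exons of all annotated transcripts, 2.59 kb for BAX and 6.22 kb for MCL1. Which transcripts the cells made was not examined. The order of genes below depends on these lengths, and the SDs do not cover that uncertainty. BCL2L1, which encodes BCL-XL, was at 82.4 ± 1.49 RPKM (SD, n = 3 here and for the other members), and MCL1 was at 47.9 ± 1.95 RPKM. The effectors followed, BAX at 30.2 ± 0.277 RPKM and BAK1 at 22.0 ± 0.811 RPKM. PMAIP1 (NOXA) was at 21.6 ± 0.913 RPKM, and its libraries overlapped those of BAK1. BID came next at 12.1 ± 0.169 RPKM. A wide step separated these 6 genes from the rest. BMF was at 1.81 ± 0.333 RPKM and BCL2 itself at 1.59 ± 0.118 RPKM, and the libraries of these neighbours overlapped. BCL2L11 (BIM) was at 1.22 ± 0.0437 RPKM, below BCL2 in every library. BIK was at 0.0871 ± 0.0224 RPKM, which is 3 or 4 counts per library. Apart from the overlapping pairs BAK1 with PMAIP1 and BMF with BCL2, neighbours in this order did not overlap between libraries.

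**Figure D1:**
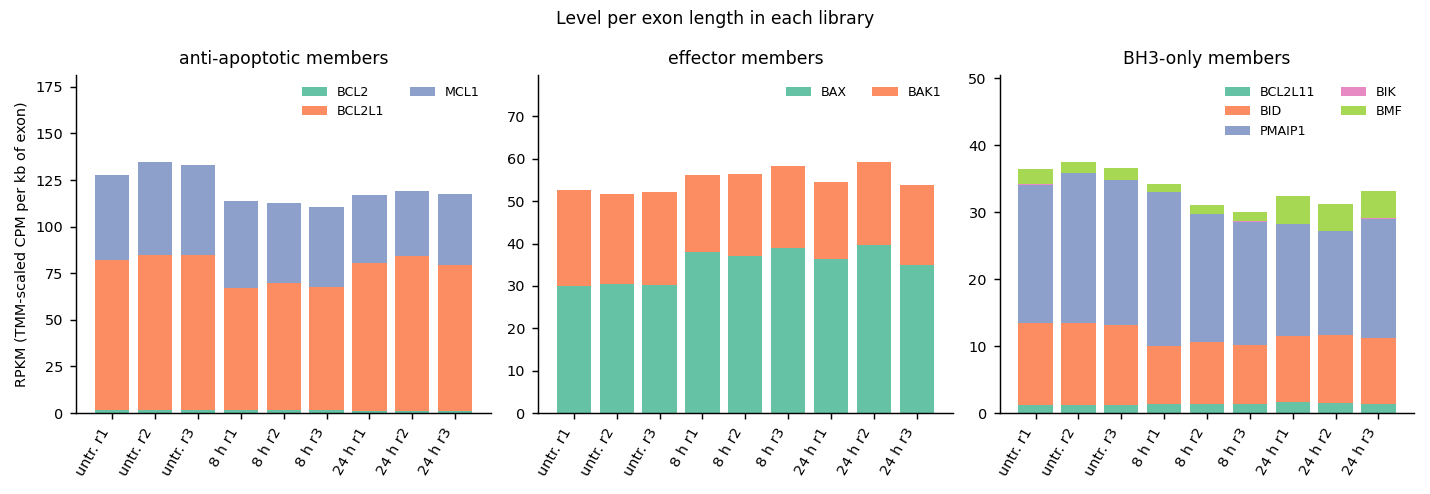
Stacked bars of RPKM (TMM-scaled CPM per kb of exon, linear axes from 0) for the anti-apoptotic, effector and BH3-only members in each of the 9 libraries (untr., untreated; r, replicate). BCL2L1 and MCL1 fill nearly all of the anti-apoptotic bar, and the BMF segment of the BH3-only bar is widest in the 3 libraries at 24 h.

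Most tested members differed from untreated cells by small amounts, and BMF was the exception in size. At 8 h against untreated cells, 1 member was higher (BAX) and 5 were lower (BCL2L1, MCL1, BAK1, BID and BMF), while BCL2, BCL2L11 and PMAIP1 did not pass an adjusted p of 0.05 (edgeR's quasi-likelihood test with Benjamini-Hochberg adjustment over all genes tested). That is 66.7% of the 9 tested members, where 49.6% of all genes tested passed, 25.2% as higher and 24.5% as lower. The CPM of 6 of the 9 members did not overlap between the groups, where 57.8% of all genes did not. At 24 h, 3 members were higher (BAX, BCL2L11 and BMF) and 5 were lower (BCL2, MCL1, BAK1, BID and PMAIP1), while BCL2L1 did not pass. That is 88.9% of the tested members beside 52.5% of all genes, 25.7% as higher and 26.8% as lower. The libraries of 8 of the 9 members did not overlap, beside 57.2% of all genes. The median log2 fold change of the tested members was -0.11 at 8 h and -0.22 at 24 h, beside 0 over all genes at both times. Of these members, the study lists BCL2L1 as changed at 8 h and BCL2 as changed at 24 h in these same libraries. For BCL2 it states downregulation. The calls of both genes are therefore not independent evidence of direction. Both comparisons share the untreated libraries. Between the times, 24 h against 8 h, 4 members were higher (BCL2L1, BCL2L11, BID and BMF), 3 were lower (BCL2, MCL1 and PMAIP1) and the effectors did not pass, which is 77.8% called beside 54.8% of all genes, 26% as higher and 28.8% as lower. In that comparison 7 of the 9 members did not overlap, beside 62% of all genes. Adding a limit of 0.5 on the absolute log2 fold change left BMF alone among the members in each comparison, 1 of 9, beside 17.8% of all genes at 8 h, 18.7% at 24 h and 21.2% between the times. At 8 h BMF passed that limit narrowly, at -0.51. Its value there ranged from -0.63 to -0.36 on leaving out 1 library, with -0.36 reached without untreated replicate 1.

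**Figure D2:**
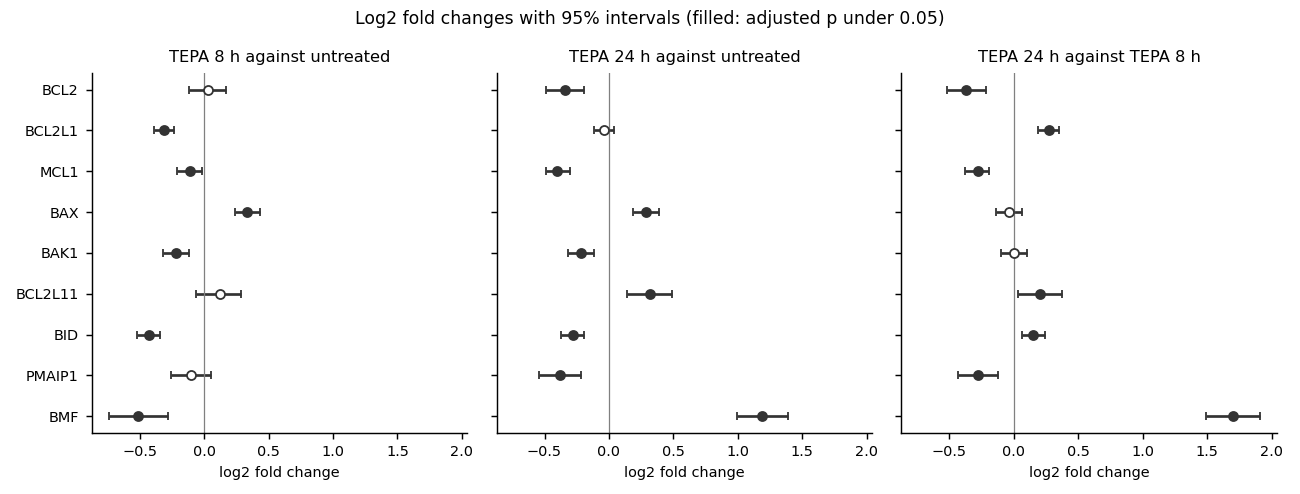
Log2 fold changes (x axis) of the 9 tested members, one row each, at 8 h against untreated, 24 h against untreated and 24 h against 8 h, with 95% confidence intervals. Filled points passed an adjusted p of 0.05, and BMF is the only member whose value lies beyond 1 in either direction, at 1.19 and 1.70 in the comparisons with 24 h.

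The anti-apoptotic genes changed at different times. BCL2L1 was lower at 8 h and back near its untreated level at 24 h, BCL2 was called lower at the later time alone, and MCL1 was lower at both times, more so at 24 h. BCL2L1 (chr20:31664452-31723989, minus strand, hg38), whose protein BCL-XL binds BAX, BAK and several BH3-only proteins, was at 339, 350.4 and 349 CPM in untreated libraries, 274, 287 and 276 CPM at 8 h and 332, 349 and 329 CPM at 24 h. Every library at 8 h lay below every other library, and the 24 h and untreated groups overlapped. The log2 fold change was -0.31 at 8 h (SE 0.04, 0.807-fold, adjusted p = 4.5e-06 from edgeR), and the 24 h level was above the 8 h level by 0.27 (SE 0.04, adjusted p = 1.2e-05). At 24 h against untreated cells the value was -0.04 (95% confidence interval -0.12 to 0.04, adjusted p = 0.38). No member of the anti-apoptotic group was higher than in untreated cells at either time in edgeR, nor was any by an unadjusted p under 0.05 or by DESeq2 (0 of 3 each).

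MCL1 (chr1:150560895-150579738, minus strand) encodes a short-lived survival protein that cells replace within hours. Its libraries were at 284, 308 and 301 CPM in untreated cells, 290.4, 267 and 269 CPM at 8 h and 228, 216 and 234 CPM at 24 h. The 24 h libraries lay below all others, while the untreated and 8 h groups overlapped through TEPA 8 h replicate 1. The log2 fold change at 24 h was -0.40 (SE 0.04, 0.76-fold, adjusted p = 2e-06), and against 8 h it was -0.28 (adjusted p = 5.6e-05). The value at 8 h was small, -0.11 (SE 0.04, adjusted p = 0.046 from edgeR). That call did not hold with upper-quartile scaling (adjusted p = 0.085). It was also lost without untreated replicate 2 (0.11), untreated replicate 3 (0.10), TEPA 8 h replicate 2 (0.15) or TEPA 8 h replicate 3 (0.13). Of its exon bases, 5.3% are shared on the same strand with ADAMTSL4-AS1, and reads from that stretch cannot be assigned to either gene.

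BCL2 (chr18:63123346-63320128, minus strand), the founding member, was at 18.7, 19.8 and 21.7 CPM in untreated libraries, 20.1, 19.3 and 22.0 CPM at 8 h and 16.0, 15.4 and 16.3 CPM at 24 h. The libraries at 24 h lay below the other 6, which overlapped each other. The log2 fold change was -0.34 at 24 h (SE 0.07, 0.79-fold, adjusted p = 0.00066) and 0.03 at 8 h (95% confidence interval -0.12 to 0.17, adjusted p = 0.75), and the times differed by -0.37 (SE 0.07, adjusted p = 0.00031).

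**Figure D3:**
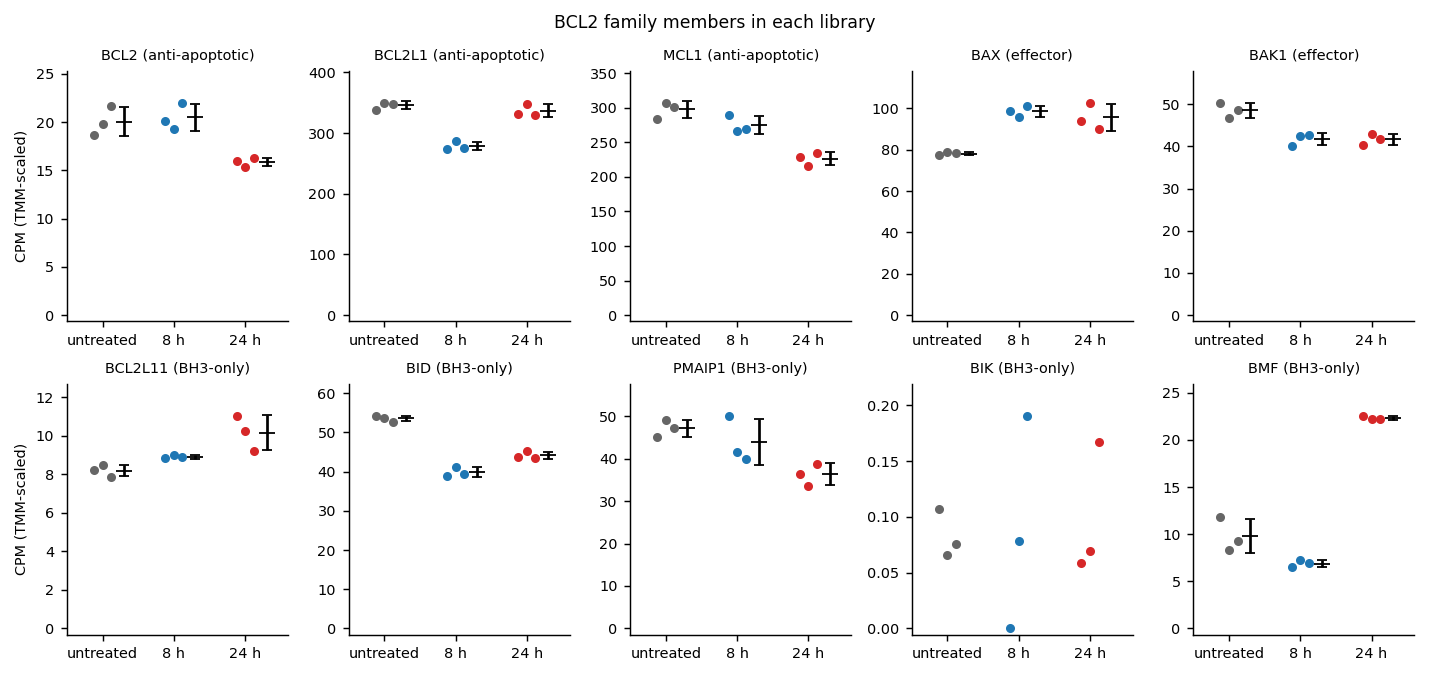
TMM-scaled CPM (y axes from 0, each gene on its own scale) of the 10 members in untreated cells and at 8 h and 24 h of TEPA, with a point per library and the mean and SD of 3 libraries beside the points. BIK is drawn without a mean because it had 0 to 7 counts per library, and BMF at 24 h (22.2 to 22.6 CPM) stands clear of its other groups.

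The effectors moved in opposite directions, BAX up and BAK1 down, by similar amounts at both times. BAX (chr19:48954815-48961798, plus strand), which shuttles to mitochondria when activated, was at 77.3, 78.7 and 78.3 CPM in untreated libraries, 98.6, 95.9 and 101 CPM at 8 h and 94.0, 102.8 and 90.1 CPM at 24 h. All 6 treated libraries were above the untreated ones. The log2 fold changes were 0.33 at 8 h (SE 0.05, 1.26-fold, adjusted p = 2.3e-05) and 0.29 at 24 h (SE 0.05, 1.23-fold, adjusted p = 6.7e-05). BAK1 (chr6:33572547-33580293, minus strand), which encodes the effector that resides at mitochondria, was at 50.4, 46.8 and 48.5 CPM in untreated libraries. It was at 40.1, 42.5 and 42.8 CPM at 8 h and 40.3, 42.9 and 41.9 CPM at 24 h. All treated libraries were below the untreated ones, with log2 fold changes of -0.22 at both times (SE 0.05, adjusted p = 0.0013 at 8 h and 0.00096 at 24 h). The near-identical pseudogene BAK1P1 had a row of its own with 15 to 36 counts per library. How many reads match both genes was not tested. Between 24 h and 8 h, neither effector passed (0 of 2 in edgeR, by the unadjusted p and in DESeq2), with 95% confidence intervals of -0.14 to 0.06 for BAX and -0.10 to 0.10 for BAK1. As a ratio of RPKM, BAX to BAK1 stood at 1.38 ± 0.063 in untreated cells, 2.02 ± 0.0874 at 8 h and 1.96 ± 0.107 at 24 h (SD, n = 3), a description of the values above.

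Among the BH3-only members BMF changed most, down at 8 h and up at 24 h. BMF (chr15:40087890-40108892, minus strand) encodes a protein known for its tie to the actin motor complexes of adherent cells and for release on loss of attachment. It was at 11.9, 8.36 and 9.31 CPM in untreated libraries, 6.47, 7.24 and 6.94 CPM at 8 h and 22.6, 22.2 and 22.3 CPM at 24 h. The 3 groups did not overlap, and the untreated libraries spread more than either treated group. The log2 fold change was -0.51 at 8 h (SE 0.11, 0.702-fold, adjusted p = 0.00095) and 1.19 at 24 h (SE 0.10, 2.28-fold, adjusted p = 5.7e-08). Against 8 h the level at 24 h was 3.25-fold, a log2 fold change of 1.70 (SE 0.10, adjusted p = 2.3e-09). In absolute size, 1.19 lay at the 95.3 percentile of all genes tested at 24 h, and 1.70 at the 98 percentile of those tested between the times. The antisense gene BMF-AS1 had 0 counts in every library, and counting was by strand.

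BCL2L11 (chr2:111119378-111168444, plus strand) encodes BIM, which binds all anti-apoptotic members and activates the effectors. It was at 8.24, 8.47 and 7.89 CPM in untreated libraries, 8.82, 8.99 and 8.90 CPM at 8 h and 11.04, 10.3 and 9.20 CPM at 24 h. The 3 groups stood one above the other without overlap, although the steps were small beside the spread of the 24 h libraries. At 24 h the log2 fold change was 0.32 (SE 0.08, 1.24-fold, adjusted p = 0.0037), and at 8 h it was 0.12 (95% confidence interval -0.06 to 0.29, adjusted p = 0.25). The difference between the times, 0.20 (SE 0.08), passed narrowly at an adjusted p of 0.048 and did not pass in DESeq2 (0.068) or without the filter on low counts (0.075). It was also lost on leaving out any library of TEPA 8 h (0.098, 0.082 and 0.091 without replicates 1, 2 and 3) and TEPA 24 h replicate 1 (0.24) or 2 (0.092).

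BID and PMAIP1 were lower. BID (chr22:17734138-17774770, minus strand), which links death receptors to mitochondria once caspase-8 cleaves it, was at 54.3, 53.7 and 52.8 CPM in untreated libraries, 38.8, 41.3 and 39.4 CPM at 8 h and 43.7, 45.2 and 43.5 CPM at 24 h. The groups did not overlap, and 8 h was the lowest. Log2 fold changes were -0.43 at 8 h (SE 0.04, 0.743-fold, adjusted p = 9e-07) and -0.28 at 24 h (SE 0.04, 0.824-fold, adjusted p = 4.4e-05), with a difference of 0.15 between the times (SE 0.04, adjusted p = 0.0083). PMAIP1 (chr18:59899996-59904305, plus strand), whose product NOXA binds MCL1 in particular, was at 45.1, 49.1 and 47.3 CPM in untreated libraries, 50.1, 41.6 and 39.9 CPM at 8 h and 36.5, 33.7 and 38.8 CPM at 24 h. Its 24 h libraries lay below all others, and TEPA 8 h replicate 1 lay above all untreated libraries while the other two at 8 h lay below them. At 24 h the log2 fold change was -0.38 (SE 0.07, 0.768-fold, adjusted p = 0.00045), and 24 h differed from 8 h by -0.28 (SE 0.07, adjusted p = 0.0052), or by -0.17 without TEPA 8 h replicate 1 (adjusted p = 0.042). At 8 h it was -0.10 (95% confidence interval -0.26 to 0.05, adjusted p = 0.26), and without TEPA 8 h replicate 1 it was -0.22 (adjusted p = 0.012).

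BIK (chr22:43110750-43129712, plus strand), a BH3-only protein of the endoplasmic reticulum, was barely detected, with 4, 3 and 3 counts in untreated libraries, with 0, 3 and 7 at 8 h and with 3, 3 and 6 at 24 h. The library at 0 allows up to 3 counts, and neither a fall nor a small rise could be detected at this depth. No BH3-only member was higher than in untreated cells at 8 h (0 of the 4 tested in edgeR, by the unadjusted p and in DESeq2).

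The promoters of the 3 members that were higher at 24 h are shown for the sequence around their start sites. They are from RefSeq on GRCh38.p14, run 5′ to 3′ on the gene's strand and cover 250 bases before the start site and 50 bases from it. Capitals mark every match on either strand to the E-box CACGTG, the forkhead motif GTAAACA and the CCAAT box (CCAAT, or ATTGG where it lies on the other strand). The entries are BAX at chr19:48954625-48954924 (plus strand), BCL2L11 at chr2:111120664-111120963 (plus strand) and BMF at chr15:40108830-40109129 (minus strand).
BAX: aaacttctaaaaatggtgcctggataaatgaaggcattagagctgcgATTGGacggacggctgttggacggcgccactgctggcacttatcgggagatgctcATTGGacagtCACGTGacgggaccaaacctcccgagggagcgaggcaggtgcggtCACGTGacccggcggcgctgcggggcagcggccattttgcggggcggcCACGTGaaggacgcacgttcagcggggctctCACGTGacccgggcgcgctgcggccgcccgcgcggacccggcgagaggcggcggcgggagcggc
BCL2L11: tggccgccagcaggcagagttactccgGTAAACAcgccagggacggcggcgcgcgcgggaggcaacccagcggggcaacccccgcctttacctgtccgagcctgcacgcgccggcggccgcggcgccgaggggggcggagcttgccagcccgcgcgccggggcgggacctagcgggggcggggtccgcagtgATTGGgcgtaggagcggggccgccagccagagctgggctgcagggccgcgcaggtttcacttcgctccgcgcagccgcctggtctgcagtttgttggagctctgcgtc
BMF: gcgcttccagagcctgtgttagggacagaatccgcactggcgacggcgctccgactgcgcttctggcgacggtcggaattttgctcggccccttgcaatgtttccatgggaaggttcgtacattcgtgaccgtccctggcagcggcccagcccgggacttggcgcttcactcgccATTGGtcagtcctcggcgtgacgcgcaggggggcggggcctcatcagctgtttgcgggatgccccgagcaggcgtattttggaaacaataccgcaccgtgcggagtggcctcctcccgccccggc
The BAX window held 4 E-boxes, with first bases at -138, -93, -45 and -14 from the start site. An E-box was present in 7.26% of all 35116 promoters of this length, and 4 or more in 5 of them (0.0142%). The number 4 is that of BAX itself, which is among the 5, so this share is a description and no test. BCL2L11 held a forkhead motif at -223, found in 3.42% of promoters, and a CCAAT box at -58. BMF held a CCAAT box at -75, found in 34.6% of promoters, and neither an E-box nor a forkhead motif.

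Of the 10 members, 8 had a promoter entry, and MCL1 and BIK did not. BID had 5 entries and BCL2L1 and BMF had 2 each, of which the entry nearest to the annotated start of the gene was searched, so the matches describe that window alone. Over these 8, the E-box and the forkhead motif each occurred in 1 promoter, the CCAAT box in 4, the GC box (GGGCGG, 45% of all promoters) in 5 and the TATA box (TATAAA, 11.5%) in 1, that of BCL2L1. The cyclic AMP response element TGACGTCA (1.85% of all promoters) and the AP-1 motif TGANTCA (7.71%) occurred in none of the 8. All motifs were searched on both strands. GC content was 48.7% to 74.7% in the member promoters beside a median of 58.7% over all promoters, and 5 of the 8 were above that median. These matches describe letters in the window and were not tested for any relation to the changes.

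Summed by role on the RPKM scale, the anti-apoptotic members went from 132 ± 3.51 in untreated cells to 112 ± 1.55 at 8 h and 118 ± 1.06 at 24 h (SD, n = 3). Every treated library, at 111 to 119 RPKM, was below the untreated ones, at 128 to 135 RPKM. The effectors went from 52.1 ± 0.546 to 57.0 ± 1.21 and 55.8 ± 2.92 RPKM, with all treated libraries above the untreated range. The BH3-only members went from 36.8 ± 0.572 to 31.8 ± 2.18 and 32.3 ± 0.983 RPKM, with all treated libraries below it. Make-up among the listed members of a role shifted as well. BCL2L1 gave 62.5 ± 0.541% of the anti-apoptotic sum in untreated cells, 59.2 ± 1.55% at 8 h and 68.1 ± 1.54% at 24 h. BMF gave 4.92 ± 0.964%, 4.00 ± 0.452% and 12.7 ± 0.363% of the BH3-only sum. BAX to BCL2L1 stood at 0.366 ± 0.00333, 0.573 ± 0.0276 and 0.461 ± 0.0172. These sums, shares and ratios weigh transcripts per length of all annotated exons and give no measure of protein. No test was run on them because the members' own tests are above. The sums cover the listed members only, so the shares are not those of a whole class. Expressed BCL2 relatives left out include BAD, with means of 83.2, 72.8 and 64.65 CPM (untreated, 8 h, 24 h). In that order, BOK was at 81.2, 70.8 and 70.4 CPM. BCL2L2 was at 39.3, 52.35 and 32.8 CPM, and BBC3 at 6.24, 4.31 and 9.48 CPM.

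Around the family, 70 other genes of the apoptosis pathway were listed, of which 63 were tested. At 8 h, 10 were higher and 27 lower, 58.7% called beside 49.6% of all genes, and the list had a median of -0.09 on the log2 scale. At 24 h, 15 were higher and 23 lower, 60.3% called beside 52.5% of all genes, and the median was -0.03. Between the times, 22 were higher and 14 lower at 24 h, 57.1% called beside 54.8%.

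Inhibitor of apoptosis (IAP) genes, whose products restrain caspases or their upstream complexes, were higher where called. Of 6 tested, 3 were higher at 8 h and 4 at 24 h, and none was lower at either time (0 by the unadjusted p and by DESeq2 as well). That is 50% called at 8 h, about the 49.6% of all genes, and 66.7% at 24 h beside 52.5%. BIRC3 (cIAP2) had the largest log2 fold change against untreated cells among the pathway genes named by rule. It was at 33.4, 31.3 and 33.8 CPM in untreated libraries, 37.9, 33.2 and 32.6 CPM at 8 h and 139, 126 and 141 CPM at 24 h, so that its log2 fold change was 2.04 at the later time (SE 0.06, adjusted p = 2e-12) and 0.08 before (adjusted p = 0.33), a difference of 1.97 between the times (adjusted p = 1.5e-11). BIRC2 (cIAP1) was higher at both times, 0.42 and 0.69 (SE 0.05 each, adjusted p = 1.2e-05 and 3.9e-08). BIRC6 was at 0.29 and 0.41 (adjusted p = 4.7e-05 and 1e-06).

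Caspases, the proteases that carry out apoptosis, were lower where called, 4 of 7 at 8 h and 5 of 7 at 24 h, with 0 higher at either time in edgeR, by the unadjusted p and in DESeq2. That is 57.1% called at 8 h beside 49.6% of all genes (24.5% as lower), and 71.4% at 24 h beside 52.5% (26.8% as lower). CASP10, an initiator, had log2 fold changes of -0.52 and -0.37 (adjusted p = 0.0013 and 0.011). At 24 h its value was -0.24 without untreated replicate 1 (adjusted p = 0.050 when rounded, still called). Leaving out TEPA 24 h replicate 1 ended that call (-0.32, adjusted p = 0.054). CASP8, the initiator that cleaves BID, was called only at the later time (-0.13, adjusted p = 0.021, against -0.08, adjusted p = 0.14, before), and its levels at the times did not differ past the threshold (-0.05, adjusted p = 0.37). The 24 h call of CASP8 was lost with upper-quartile scaling (adjusted p = 0.063) and without untreated replicate 2 (0.083), untreated replicate 3 (0.061) or TEPA 24 h replicate 1 (0.057).

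In the death receptor arm, 7 of 9 tested genes were lower at 8 h and 0 higher (0 by the unadjusted p and in DESeq2), and at 24 h 4 were lower and 2 higher. That is 77.8% called at 8 h beside 49.6% of all genes (24.5% as lower), and 66.7% at 24 h beside 52.5%. TNFRSF10B, a receptor for TRAIL, had log2 fold changes of -0.44 and -0.32 (SE 0.05, adjusted p = 3.2e-06 and 6.8e-05), the adaptor FADD -0.34 and -0.45 (adjusted p = 4.5e-06 and 1.7e-07), and the kinase RIPK1 -0.40 and -0.22 (adjusted p = 5.4e-07 and 0.00016). The 2 genes called higher at 24 h were TNFSF10, given under other observations, and TNFRSF10A, also a receptor for TRAIL (0.13, adjusted p = 0.039 from edgeR). Genes of the apoptosome and of mitochondrial release numbered 1 higher and 2 lower of 9 at 8 h, and 1 higher and 4 lower at 24 h, or 33.3% and 55.6% called beside 49.6% and 52.5% of all genes. HTRA2, a mitochondrial protease that binds IAP proteins after release, rose from 59.7 ± 2.22 CPM to 88.4 ± 2.33 CPM and 105 ± 3.52 CPM (0.57 and 0.81, adjusted p = 5.6e-08 and 5.6e-10). The outer membrane channels VDAC1 and VDAC2 were lower at 24 h by log2 fold changes of -0.22 and -0.39 (adjusted p = 5.1e-05 and 1.3e-07).

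Other BCL2 relatives, 9 of 15 tested, were higher in 2 and lower in 6 at 8 h, and higher in 2 and lower in 4 at 24 h, or 88.9% and 66.7% called beside 49.6% and 52.5% of all genes. BCL2L2 (BCL-W), a further anti-apoptotic gene, rose from 39.3 ± 0.643 CPM to 52.4 ± 2.04 CPM at 8 h and fell to 32.8 ± 0.38 CPM at 24 h (0.41 and -0.26, adjusted p = 1.7e-06 and 0.00017). It shares exons with the read-through gene BCL2L2-PABPN1, so its counts are uncertain to that extent. BCL2L2-PABPN1 was counted as a relative of its own, with means of 1.30, 1.38 and 1.84 CPM (untreated, 8 h, 24 h). It was among the 2 called higher at 24 h (0.50, adjusted p = 0.017 from edgeR). BNIP3, which acts in mitophagy, had -0.50 and -0.44 (adjusted p = 1.6e-07 and 3.6e-07), and its relative BNIP3L was at -1.04 after 8 h (SE 0.11, adjusted p = 1.5e-06) but 0.01 after 24 h (adjusted p = 0.95), and the times differed by 1.05 (adjusted p = 8.1e-07).

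**Figure D4:**
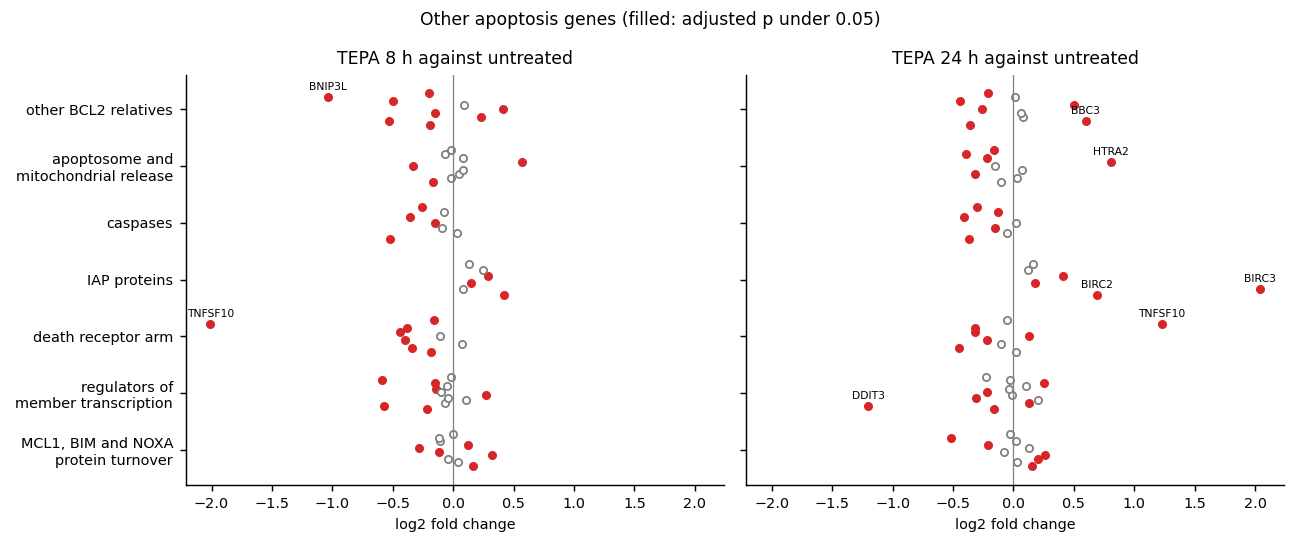
Log2 fold changes (x axis) of the other apoptosis genes by list, at 8 h and 24 h against untreated, where each point is a gene and filled points passed an adjusted p of 0.05. TP63 is left out because it had at most 3 counts in each 8 h library, and labels name genes with a log2 fold change of at least 0.6 in absolute size, among them BIRC3 at 2.04.

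Of 13 transcription factors known to control members, 1 was higher and 6 lower at 8 h, and 3 higher and 4 lower at 24 h. That is 53.8% called at both times, near the 49.6% and 52.5% of all genes. DDIT3 (CHOP), a stress factor with BCL2L11 among its targets, had -0.57 and -1.20 (adjusted p = 8.3e-05 and 4e-08). STAT3, which drives MCL1 and BCL2L1, was first lower and then higher than in untreated cells, -0.15 and 0.25 (adjusted p = 0.0041 and 4.2e-05). Among 10 genes for turnover of the MCL1, BIM and NOXA proteins, 3 were higher and 2 lower at both times, 50% called and so near the share of all genes. HUWE1, a ubiquitin ligase for MCL1, had 0.32 and 0.26 (adjusted p = 0.00022 and 0.00089), the deubiquitinase USP13, which stabilises MCL1, had -0.12 and -0.52 (adjusted p = 0.095 and 3e-06), and the kinase GSK3B had -0.04 and 0.20 (adjusted p = 0.45 and 6e-04).

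The genes whose log2 CPM followed a member most closely over the 9 libraries were named for BMF, BID and MCL1, the called members with the largest change, among 11919 genes with a mean of at least 100 counts. For BMF they were GABARAPL1 (Pearson r 0.997, -0.53 at 8 h and 1.06 at 24 h), NBR1 (0.997, -0.19 and 0.59) and SORT1 (0.996, -0.28 and 0.67), and 380 genes had an r over 0.95. For BID they were PHC2, NIPAL3 and BACE2 (0.991 each), with 207 genes over 0.95. For MCL1 they were SBDS (0.994), METAP2 (0.991) and PCNX4 (0.989), with 181 genes over 0.95. The libraries fall into 3 groups, so such an r is shared by every gene with the same pattern of group means.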

How the data were processed

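Counts of read pairs per gene name were deposited by the authors, who by their processing notes and methods used FastQC, HISAT2 (GRCh38, hg38) and featureCounts on paired, reverse-stranded exon reads of TruSeq stranded mRNA libraries. The counts are not normalized. Groups came from the sample labels. From the counts, edgeR 4.0.16 (R 4.3.3) gave the tests: filterByExpr with a minimum count of 10, TMM scaling, 1 quasi-likelihood fit over all 9 libraries with the group as its only term, and Benjamini-Hochberg adjustment over 16556 genes, called at an adjusted p under 0.05. The genes tested held 99.95% of the counts. The code was tested on simulated data. Exon lengths and positions are from GENCODE v44 on hg38, the authors' build in a later annotation release, and promoters are from RefSeq. Intervals in brackets are 95% confidence intervals from the fit. No 2 libraries were the same within sampling noise.

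The members, gene lists and rules were chosen with earlier results of these data known. Named were the 10 members, at most 3 genes per pathway list with the smallest adjusted p against untreated cells and a mean of at least 100 counts, and for 3 members the 3 genes most like them. Values of 2 genes that the rule would name are not reported here. Alternatives were RLE and upper-quartile scaling, DESeq2 1.42.0, no filter, 10 counts in every library, a log2 fold limit of 0.5, the 2 compared groups alone, a replicate block and leaving out each library.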

Additional observations from a re-analysis of the deposited data

Results flagged for a closer look

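For 7 members the change against untreated cells differed between 8 h and 24 h, tested as 24 h against 8 h in edgeR's quasi-likelihood fit (adjusted p below 0.05 in each). BMF differed most, by a log2 value of 1.70. BCL2L1 (0.27), BCL2L11 (0.20) and BID (0.15) were higher at 24 h than at 8 h, and BCL2 (-0.37), MCL1 (-0.28) and PMAIP1 (-0.28) were lower. The untreated libraries enter this contrast only through the scaling and the shared estimate of the spread. Under the log2 fold limit of 0.5, BMF alone kept its call. Under the other settings, the call for BCL2L11 is the one among these that was lost.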

How the results depend on the processing

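Of 351 values of members under alternatives other than the fold limit, 325 kept their direction and their side of the threshold. Of the rest, 14 lost the call, 1 gained it and 11 changed sign. All member calls lost among these were those of MCL1 at 8 h and BCL2L11 between the times, and the call gained was PMAIP1 at 8 h. With a log2 fold limit of 0.5, members higher and lower numbered 0 and 1 at 8 h, 1 and 0 at 24 h, and 1 and 0 between the times, pathway genes 1 and 8, 6 and 2, and 6 and 2, and all genes 1673 and 1270, 1695 and 1400, and 1716 and 1789. This follows from the small size of most changes. BAK1 between the times, 0 in the fit as reported, was 0.01 under RLE, upper-quartile scaling, DESeq2 and no filter, 0 with 10 counts in every library and 0.02 in the 2 groups alone. Values that were not called and changed sign on leaving out 1 library were BAK1 between the times (-0.03 to 0.02), BCL2 at 8 h (-0.03 to 0.08), BIRC3 at 8 h (0 to 0.11) and BNIP3L at 24 h (-0.11 to 0.16).

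Replicate numbers did not pair the samples. Deviations of the 9 same-numbered pairs correlated at -0.08 to 0.038, and 1 library correlated best with its own number in both other groups. With the replicate number as a block, members higher and lower were 1 and 4 at 8 h, 3 and 5 at 24 h, and 3 and 3 between the times, with MCL1 at 8 h (adjusted p = 0.07) and BCL2L11 between the times (0.064) not called.

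Depth limits BIK, at 0 to 7 counts per library. Scaling moved the median of all genes by at most 0.026 on the log2 scale.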

Other observations

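Outside the rule for named genes, 2 pathway genes stood out after their values were seen. Their pattern, lower at 8 h and higher at 24 h, was called in 4 of the 63 tested pathway genes. It was also called in 571 of all 16556 genes and in 1 of the 9 tested members, BMF. BBC3, which encodes the BH3-only protein PUMA, was at 7.44, 6.15 and 5.12 CPM in untreated libraries, 3.90, 4.39 and 4.63 CPM at 8 h and 9.02, 9.52 and 9.90 CPM at 24 h. Its groups did not overlap, with log2 fold changes of -0.53 at 8 h (SE 0.12, adjusted p = 0.0021 from edgeR) and 0.60 at 24 h (SE 0.11, adjusted p = 0.00031). TNFSF10, which encodes the death ligand TRAIL, was scarce, with 30, 30 and 14 counts in untreated libraries, with 6, 7 and 4 at 8 h and with 70, 67 and 48 at 24 h. Its log2 fold change was -2.01 at 8 h (SE 0.38, adjusted p = 4e-04 from edgeR) and 1.23 at 24 h (SE 0.25, adjusted p = 0.00074). TP63 had 11, 6 and 10 counts in untreated libraries, with 2, 3 and 2 at 8 h and with 36, 34 and 32 at 24 h, too few at 8 h for a fold.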
